A study of Homo sapiens with 37 samples.

Results

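KCNQ1OT1 is a long non-coding RNA, listed in both count tables as ENSG00000269821.1. It was 1 ID chosen from 60483 because it had the largest called gain of APEX-CBX1 over APEX-GFP in RNA enrichment, a choice made from measured values. The 37 libraries came from HEK293T cells, a human embryonic kidney line, each carrying an APEX fusion. APEX is a peroxidase that attaches biotin-phenol to nearby RNA. Cells received 500 µM biotin-phenol for 30 min and 1 mM H2O2 for 1 min, and biotinylated RNA was collected on streptavidin beads (the pulldown) beside total RNA (the input).

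The naive table held unstressed cells with APEX-CBX1 (CBX1 is a chromatin protein that binds methylated histones), C1-APEX (directed to the endoplasmic reticulum), APEX-eIF4E (the mRNA cap-binding protein), APEX-eIF4A (an RNA helicase that works beside eIF4E in translation initiation) or APEX-GFP (no such partner). Each construct had 2 pulldowns and 2 inputs. The stress table held APEX-eIF4A cells only, at T0 without stress, under heat shock at T4 and T20, or with hippuristanol, an eIF4A inhibitor, or DMSO, its vehicle. The hippuristanol inputs are named so by their titles, but their stress label says heat shock. The unit of T is not given in the labels. T0, T20 and hippuristanol had 2 pulldowns and 2 inputs, T4 had 1 of each, and DMSO had 2 pulldowns and 1 input. The labels do not say whether replicates were separate cultures, whether a construct was 1 clone, or which promoter drove it, so the spread between replicates may be technical.

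KCNQ1OT1 is transcribed from a promoter in the imprinted domain around KCNQ1 and is expressed from the paternal chromosome. The RNA stays in the nucleus on chromatin, where it is known for silencing neighbouring genes such as CDKN1C, a cell cycle inhibitor, and PHLDA2, a growth regulator, in cis, through histone methyltransferases and Polycomb complexes. RefSeq on GRCh38.p14 places it at chr11:2608328-2699994, a span of 91667 bases, inside that of the potassium channel gene KCNQ1 at chr11:2445008-2849105. The transcript runs antisense to KCNQ1 within its intronic sequence. The strand setting of the authors' counting is not given in the sources used here, so reads of KCNQ1OT1 and of unspliced KCNQ1 cannot be told apart. CDKN1C lies 183 kb and PHLDA2 228 kb beyond it, but the files do not pair Ensembl IDs with names, so neither could be measured here. For the same reason the labelled cell type could not be checked against marker genes.

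Total counts were 1718517 to 3276410 in naive pulldowns and 1419968 to 2629957 in naive inputs, and 707356 to 1221213 in stress pulldowns and 4540426 to 7782943 in stress inputs. The 10 IDs with the highest share took 55.6% to 70.0% of naive pulldowns, 68.6% to 75.3% of naive inputs, 25.6% to 44.1% of stress pulldowns and 3.43% to 7.80% of stress inputs. The 2 C1 pulldowns stood apart from each other: their counts gave a chi-square per ID of 9.20, while the pairs of the remaining naive constructs gave 3.28 to 4.97 in pulldowns. In the stress table the T0 inputs reached 77.3, against 12.4 and 31.1 for the T20 and hippuristanol inputs. Levels are given as CPM, a library's count divided by its total and set to a common size, scaled by edgeR's trimmed mean of M-values (TMM) within each table.

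In the naive table KCNQ1OT1 was measured at a higher level in the pulldowns than in the inputs of every construct, with no overlap between replicates; unstressed APEX-eIF4A cells at T0 of the stress table ran the other way. Since these are bulk samples, fewer cells with the RNA and less of it per cell cannot be told apart. The APEX-CBX1 pulldowns had 119 and 72.4 CPM, from 456 and 206 counts, against 7.55 and 10.3 CPM in the APEX-CBX1 inputs, from 12 and 17 counts. Those small input counts leave exact 95% Poisson intervals of 3.90 to 13.2 and 6.01 to 16.5 CPM, which cover counting error only. The APEX-GFP pulldowns had 47.7 and 49.8 CPM, against 31.8 and 27.0 CPM in the APEX-GFP inputs. CBX1 and GFP are the libraries that chose the gene, so these values are given without a test. Pulldowns above inputs without overlap were seen for 26.5% of tested IDs with CBX1 and 24.6% with GFP. For C1, eIF4E and eIF4A together the share was 5.83%, and over all 5 constructs it was not counted.

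**Figure D1:**
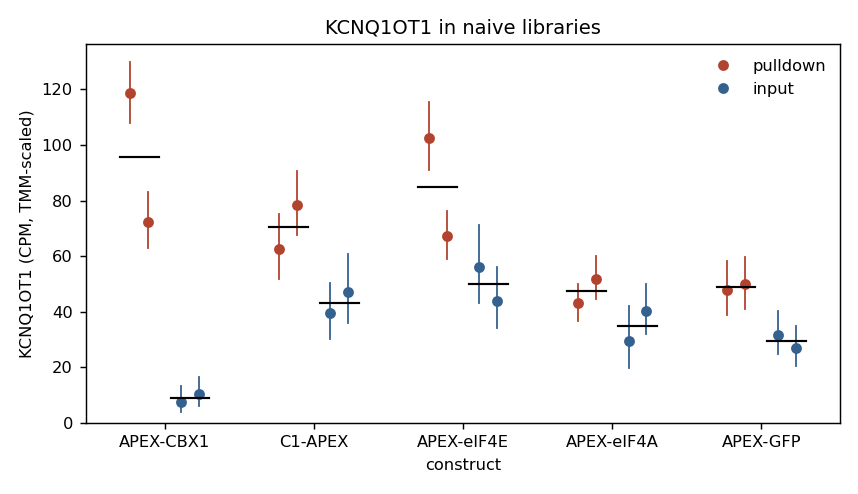
KCNQ1OT1 in the 20 naive libraries, as TMM-scaled CPM by construct, pulldowns in red and inputs in blue. Points are single libraries, vertical lines their 95% Poisson intervals (counting error only) and black bars group means; the APEX-CBX1 inputs, with a mean of 8.93 CPM, lie below all other inputs.

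The larger part of the difference that chose the gene lay in the inputs. The input-adjusted log2 difference of CBX1 minus GFP was 2.69, the largest of 17 called gains (0.137% of 12427 tested IDs were called higher). The next called gain was 2.20. By size alone the KCNQ1OT1 difference ranked 191 among all tested IDs, called or not. It is made up of a log2 fold change of 0.98 between the pulldowns and of -1.71 between the inputs. Pulldowns of CBX1 above those of GFP without overlap were seen for 21.3% of IDs, and inputs of CBX1 below those of GFP for 21.1%. The input-adjusted differences of CBX1 were 2.70 against C1, 2.65 against eIF4E and 3.02 against eIF4A. All of them use the same CBX1 inputs. Within pulldowns, CBX1 over eIF4E differed by only 0.19 on the log2 scale, and within inputs by -2.46.

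By pulldown level, the order was CBX1 at 95.5 ± 32.7 CPM, eIF4E at 84.9 ± 25.1, C1 at 70.5 ± 11.2, GFP at 48.7 ± 1.51 and eIF4A at 47.4 ± 6.17 (SD, n = 2 each). Replicates of CBX1, eIF4E and C1 overlapped from neighbour to neighbour, as did those of GFP and eIF4A. The C1 pulldowns lay above the GFP pulldowns without overlap, as for 19.9% of tested IDs. With library size in place of TMM, eIF4A at 61.4 CPM stood above GFP at 55.0 CPM, and the higher eIF4A pulldown, at 70.9 CPM, lay above the lower C1 pulldown, at 65.0 CPM. By input level, the order was eIF4E at 49.9 ± 8.45 CPM, C1 at 43.2 ± 5.41, eIF4A at 34.8 ± 7.62, GFP at 29.4 ± 3.36 and CBX1 at 8.93 ± 1.95 (SD, n = 2 each). Neighbours overlapped down to GFP, while both CBX1 inputs lay below every other naive input, as for 5.26% of tested IDs. The higher eIF4E pulldown, at 103 CPM, lay between the CBX1 pulldowns, and so did the higher C1 pulldown, at 78.4 CPM.

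The difference that chose the gene was not one of C1, eIF4E or eIF4A, which allowed a test of their pulldowns over inputs. The spread in these tests was taken over all 20 naive libraries, CBX1 and GFP included. In a fit without the CBX1 and GFP libraries no construct passed. The log2 fold changes were then 0.72 for C1, 0.76 for eIF4E and 0.39 for eIF4A (edgeR adjusted p = 0.105, 0.156 and 0.671). The eIF4E pulldowns had 103 and 67.1 CPM, against 55.9 and 44.0 CPM in the eIF4E inputs. The log2 fold change was 0.77 ± 0.24 (SE), which did not pass (edgeR adjusted p = 0.107). In that comparison 2.51% of 12427 IDs were called, and 88.9% of tested IDs had a lower log2 fold change. For APEX-GFP, given without a test, pulldown over input was 0.73. The eIF4E value also did not pass with DESeq2 (0.76, DESeq2 adjusted p = 0.0953) or with the replicate block (0.74, edgeR adjusted p = 0.0598). It passed without a count filter (0.83, edgeR adjusted p = 0.0206, 0.957% called) and with library size without the 10 highest IDs (0.89, edgeR adjusted p = 0.044, 2.88% called). With only the eIF4E libraries it passed too (0.74, edgeR adjusted p = 0.0361, 4.1% called). It also passed without eIF4E pulldown replicate 2 (1.05, edgeR adjusted p = 0.0239, 2.87% called), while without eIF4E pulldown replicate 1 it was 0.45 (edgeR adjusted p = 0.912).

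The C1 pulldowns had 62.6 and 78.4 CPM, against 39.4 and 47.0 CPM in the C1 inputs. The log2 fold change of 0.72 ± 0.25 (SE) did not pass (edgeR adjusted p = 0.0831), in a comparison that called 6.45% of IDs. Without C1 pulldown replicate 1, from the pair that stood apart, it was 0.85 and passed (edgeR adjusted p = 0.0466, 5.05% called), and without C1 pulldown replicate 2 it was 0.50 (edgeR adjusted p = 0.176), where 23.2% of IDs were called. The eIF4A pulldowns had 43.0 and 51.7 CPM, against 29.5 and 40.2 CPM in the eIF4A inputs. For eIF4A the log2 fold change was 0.40 ± 0.26 (SE; edgeR adjusted p = 0.615), with 2.18% of IDs called. Without eIF4A input replicate 1 it was 0.22, and without eIF4A input replicate 2 it was 0.70. The ratio of means was 1.36 for eIF4A, below 1.63 for C1 and 1.66 for GFP, but by library size it was 2.39, above 1.81 for C1 and 1.96 for GFP.

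The replicates of pulldown and input did not overlap in any of these 3 constructs. The share of tested IDs with that pattern was 22% in C1, 24% in eIF4E, 26% in eIF4A and 5.83% in all 3 together. Pulldown over input was next compared between the 3 constructs. The input-adjusted log2 difference was 0.37 ± 0.36 (SE) for eIF4E minus eIF4A, 0.32 ± 0.36 for C1 minus eIF4A and -0.048 ± 0.35 for C1 minus eIF4E (edgeR adjusted p = 1, 0.851 and 0.984). Each was about as large as its standard error or smaller. The direction of C1 minus eIF4A turned with library size (-0.34) and without eIF4A input replicate 2 (-0.022). That of C1 minus eIF4E turned on leaving out C1 input replicate 2 (0.050), eIF4E input replicate 2 (0.071), C1 pulldown replicate 1 (0.079) or eIF4E pulldown replicate 1 (0.25). The value of eIF4E minus eIF4A was 0.036 without eIF4E pulldown replicate 1, 0.067 without eIF4A input replicate 2 and 0.64 without eIF4E pulldown replicate 2. These comparisons called 0%, 0.121% and 0.217% of IDs by edgeR; for the first, 251 IDs passed at an unadjusted p of 0.05 and 0 were called with DESeq2. Without C1 pulldown replicate 2, the IDs called numbered 1208 for C1 minus eIF4A, against 15 with it, and 1137 for C1 minus eIF4E, against 27.

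Scaling bears on these values. With library size in place of TMM, eIF4E pulldown over input was 1.62 (edgeR adjusted p = 5.46e-05, 36.4% called) and eIF4A 1.22 (edgeR adjusted p = 0.00208, 31.7% called), and the median over all tested IDs was then 0.89 and 0.82, against 0.02 in both with TMM. Taken relative to that median, KCNQ1OT1 was 0.73 for eIF4E and 0.39 for eIF4A, against 0.75 and 0.38 with TMM.

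**Figure D2:**
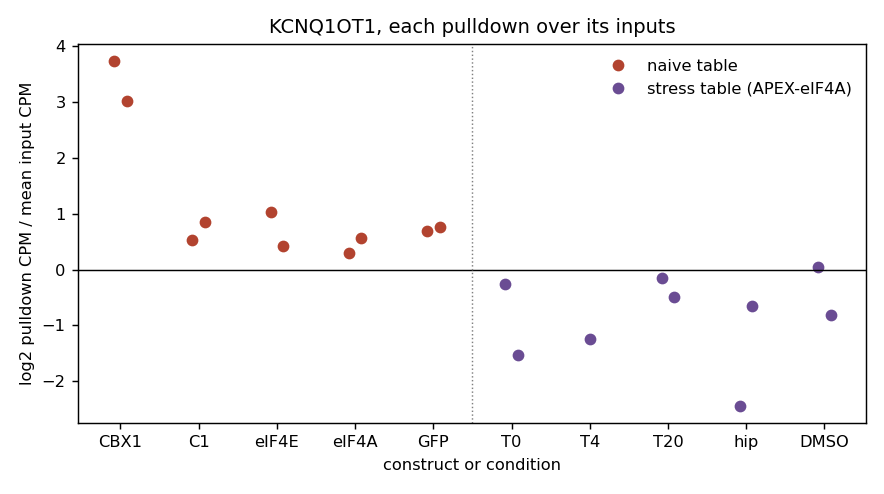
Log2 ratio of KCNQ1OT1 CPM in each pulldown to the mean of the inputs of the same construct or condition, red for the naive table and purple for the APEX-eIF4A stress table. The 10 naive pulldowns lie above 0, from 0.30 for an eIF4A to 3.73 for a CBX1 library, while 8 of the 9 stress pulldowns lie below 0.

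Among the 13 comparisons tested, T20 of heat shock over T0 had the largest log2 fold changes of KCNQ1OT1, in inputs and in pulldowns. At T0 the inputs had 38.0 and 44.6 CPM, at T4 the single input had 74.9 CPM, and at T20 the inputs had 232 and 228 CPM, from 1168 and 1560 counts. The T20 inputs averaged 230.3 ± 2.65 CPM and the T0 inputs 41.3 ± 4.69 CPM (SD, n = 2 each), a ratio of 5.58. The T20 and T0 values did not overlap, a pattern that 24.4% of 16678 tested IDs showed in that direction.

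The log2 fold change of T20 over T0 in inputs was 2.48 ± 0.62 (SE). It did not pass in the fit over all 17 libraries (edgeR adjusted p = 0.631; unadjusted p = 0.000605), which called 0.042% of IDs and takes 1 spread per ID over pulldowns and inputs. Its p ranked 16 among all tested IDs. In a fit of the 8 inputs alone, chosen after these data were seen, it was 2.37 ± 0.31 (SE) and passed (edgeR adjusted p = 0.00275), with 0.817% of IDs called. It also passed with only the T20 and T0 inputs (2.42, edgeR adjusted p = 0.00234, 2.25% called) and with DESeq2 (2.58, DESeq2 adjusted p = 0.000629, 0.132% called). Without T0 input replicate 1, from the pair that stood apart, the value was 2.37, and without T0 input replicate 2 it was 2.60. Neither of these fits, each with 1 T0 input, passed. The call thus depended on the set of libraries and the tool, while the size moved between 2.37 and 2.69 over the 8 alternatives that kept all T20 and T0 inputs.

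**Figure D3:**
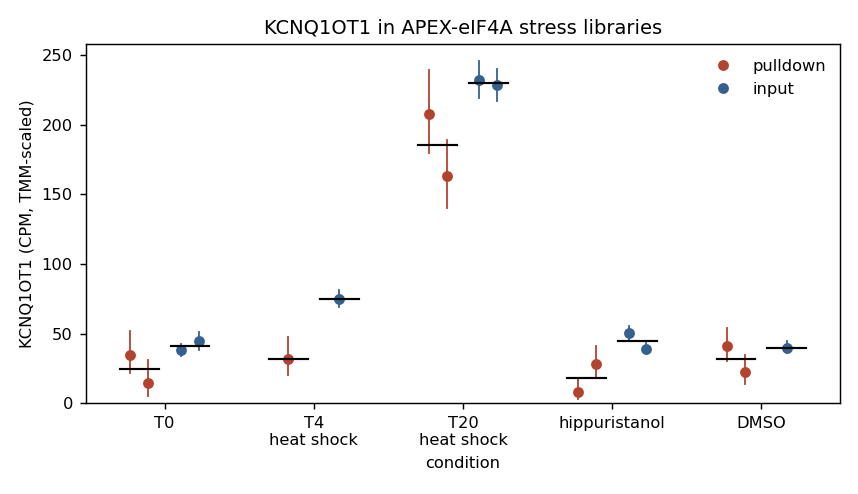
KCNQ1OT1 in the 17 APEX-eIF4A stress libraries, as TMM-scaled CPM, pulldowns in red and inputs in blue, with 95% Poisson intervals (counting error only) and group means as black bars. The T20 inputs lie at 232 and 228 CPM and the T20 pulldowns at 208 and 163 CPM, above the T0 libraries of the same fraction.

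The pulldowns showed a difference of the same direction from fewer counts. The T0 pulldowns had 34.4 and 14.3 CPM, from 23 and 6 counts, the T4 pulldown had 31.8 CPM from 24 counts, and the T20 pulldowns had 208 and 163 CPM from 190 and 181 counts. The T20 pulldowns averaged 185.6 ± 31.6 CPM and the T0 pulldowns 24.4 ± 14.2 CPM (SD, n = 2 each), and they did not overlap, as for 19% of IDs in that direction. Both inputs and pulldowns were higher at T20 without overlap for 7.22% of IDs. The single T4 pulldown lay between the T0 values, unlike the T4 input, which lay above both T0 inputs. The share of IDs with either position was not counted. In inputs the log2 fold change of T4 over T0 was 0.86, ranked 1165 from the top among 16678 tested IDs.

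The log2 fold change of T20 over T0 in pulldowns was 2.89 ± 0.66 (SE) and missed the threshold (edgeR adjusted p = 0.0759), with 0.144% of IDs called. It passed with DESeq2 (2.87, DESeq2 adjusted p = 0.000283, 6.85% called), without a count filter (2.88, edgeR adjusted p = 0.028, 0.405% called) and with library size in place of TMM (3.24, edgeR adjusted p = 0.0435, 0.444% called). The median of all IDs was 0.51 with library size and 0.09 with TMM, and relative to it KCNQ1OT1 was 2.73 with library size and 2.80 with TMM. In a fit of the 9 pulldowns alone, also chosen after these data were seen, it did not pass (2.86, edgeR adjusted p = 0.265). Leaving out T0 pulldown replicate 1 gave 3.69 and leaving out replicate 2 gave 2.43; these hold 23 and 6 counts.

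In inputs 725 other IDs had at least its log2 fold change, with 95.6% of tested IDs lower. In pulldowns 3124 did, with 81.3% lower. Nearly all of them were measured at a lower level than KCNQ1OT1. Of 1573 other IDs at least as abundant in the T20 and T0 inputs, 1 had such a log2 fold change, beside a median of -0.25. For pulldowns it was 2 of 2187, beside a median of 0.002. The level used to pick these IDs includes the T20 libraries, so these counts are a description.

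A difference between the heat shock response of pulldowns and that of inputs was not detected, within wide errors. The input-adjusted log2 difference of T20 minus T0 was 0.41 ± 0.86 (SE; edgeR adjusted p = 1), beside a median of 0.20 over all tested IDs. Of 16678 IDs, 0 were called in it by edgeR (0%), 1226 passed at an unadjusted p of 0.05, and with DESeq2 82 were called (0.492%). Without T0 pulldown replicate 2 the difference was -0.044, so its direction rested on that library. Without T0 pulldown replicate 1 the difference was 1.22, so its size moved with both.

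**Figure D4:**
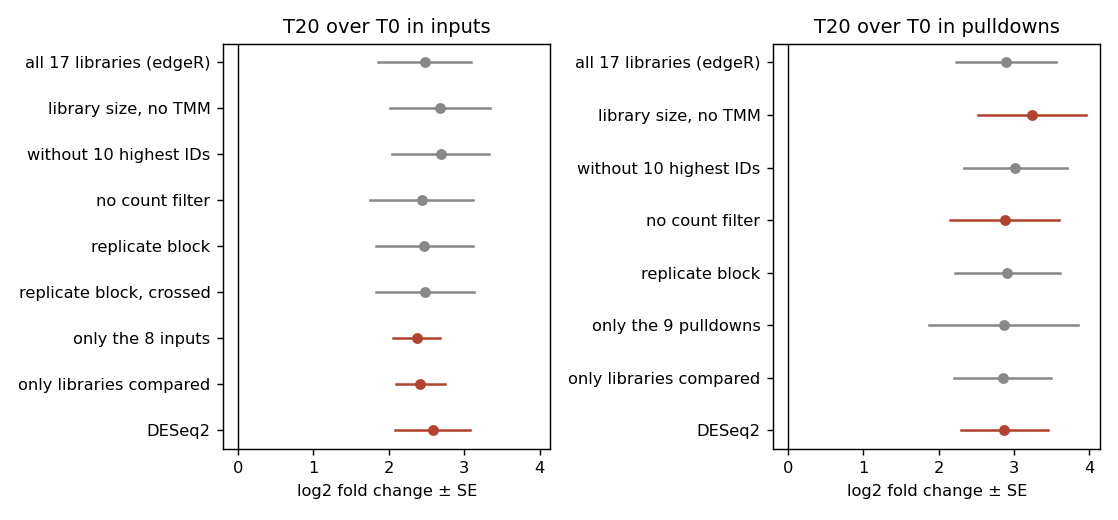
Log2 fold change ± SE of KCNQ1OT1 for T20 over T0 in inputs (left) and pulldowns (right) under each processing alternative that kept all libraries of the comparison. Red marks an adjusted p under 0.05 and grey one above it; all values lie between 2.37 and 3.24.

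With hippuristanol no difference passed the test. The hippuristanol inputs had 50.5 and 38.9 CPM, against 40.0 CPM in the DMSO input, so the DMSO value lay within the hippuristanol range. The hippuristanol pulldowns had 8.27 and 28.5 CPM, from 6 and 28 counts, against 41.1 and 22.8 CPM in the DMSO pulldowns, from 49 and 21 counts. The 2 groups overlapped. The log2 fold change was -0.78 ± 0.64 (SE; edgeR adjusted p = 0.621). It was -0.17 without hippuristanol pulldown replicate 1, -1.96 without hippuristanol pulldown replicate 2 and -0.27 without DMSO pulldown replicate 1, so its size rested on single libraries. In that comparison 0 IDs were called by edgeR (0%), 2394 passed at an unadjusted p of 0.05, and with DESeq2 797 were called (4.78%).

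Pulldown over input ran the other way in the stress table. The log2 fold change was -0.72 ± 0.63 (SE) at T0, -0.31 ± 0.59 at T20 and -1.25 ± 0.63 with hippuristanol (edgeR adjusted p = 0.737, 0.882 and 0.9), and none passed. These comparisons called 0.36%, 0.372% and 0.252% of IDs. The replicates of pulldown and input did not overlap in any of the 3, as for 39.6%, 37.9% and 36.4% of IDs in that direction. The medians over all tested IDs were also below 0, at -0.55, -0.29 and -0.36, and 45.1%, 49.4% and 24.9% of IDs were lower than KCNQ1OT1. Relative to the median it was -0.18 at T0, -0.024 at T20 and -0.89 with hippuristanol. That position moved with 1 library: it was 0.89 without T0 pulldown replicate 2, 0.80 without T20 pulldown replicate 2 and 0.25 without T20 pulldown replicate 1. At T20 it was 0.74 with no count filter and 0.30 with the replicate block. With hippuristanol it was -0.25 without pulldown replicate 1 and -1.35 without pulldown replicate 2. The single T4 pair and the DMSO libraries gave -1.24 and -0.32, beside medians of -0.98 and -0.46, with no test.

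Levels of the eIF4A inputs without stress in the 2 tables were scaled separately, and no test was made across them. They were 38.0 and 44.6 CPM at T0, 40.0 CPM with DMSO and 29.5 and 40.2 CPM in the naive table. By library size they were 45.2 and 38.0 CPM at T0, 49.0 CPM with DMSO and 21.0 and 30.4 CPM in the naive table, with the naive inputs below both.

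Likeness to KCNQ1OT1 was measured in the naive table. Over the 10 naive group means of log2 CPM, the 5 nearest of 7919 IDs correlated with it at 0.93 to 0.96 (Pearson), as a description. These points share libraries, and KCNQ1OT1's own range there rests on the CBX1 inputs; without that group the correlations were 0.78 to 0.97 over 9 groups. Over the 10 stress groups the same 5 IDs correlated with it at 0.02 to 0.40. None could be named, because the files give no symbols.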

How the data were processed

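The values are raw counts per versioned Ensembl ID as deposited. GRCh38, HISAT2, featureCounts and cutadapt are named in the submitters' processing notes, without versions or strand setting. Groups and replicate numbers come from sample titles; hippuristanol inputs carry a heat shock label but were grouped by title. A column name found in the descriptions of 2 samples was taken for the DMSO input where it stands in the stress table, and otherwise for eIF4A input replicate 2. The tables were never combined. Each was fitted in R 4.3.3 by edgeR 4.0.16, with filterByExpr, TMM, robust glmQLFit over all libraries of the table, 2-sided quasi-likelihood F tests and Benjamini-Hochberg adjustment over 12427 naive or 16678 stress IDs, with a threshold of 0.05. In all, 13 comparisons were tested. The SE is the log2 fold change divided by the square root of F. CPM used TMM-scaled library sizes after the filter; log2 CPM used a prior count of 2. DESeq2 1.42.0, other scalings, no filter, other sets of libraries, a replicate block and each library left out were alternatives. The edgeR step was tested on simulated data.

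The gene, the lists and the tests were chosen with earlier results of these data known. The gene table (GRCh38.p14) matched 0 Ensembl IDs, so 4 gene lists fixed by symbol (imprinted domain, nuclear and cytoplasmic lncRNAs, silencing partners), the cell type markers and the rule of naming the 5 IDs most like KCNQ1OT1 could not be applied; the name KCNQ1OT1 came with the choice of the ID. Same-numbered pulldowns and inputs deviated together at -0.07 to 0.14 (correlation across IDs), so numbers were not taken to pair libraries.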

Additional observations from a re-analysis of the deposited data

Results flagged for a closer look

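KCNQ1OT1 in eIF4A pulldown over input ran in opposite directions in unstressed cells of the 2 tables, and neither value passed. Both T0 pulldowns lay below the T0 inputs (log2 fold change -0.72 ± 0.63 SE, edgeR adjusted p = 0.737), as for 39.6% of tested IDs. Both naive eIF4A pulldowns lay above the naive eIF4A inputs (0.40 ± 0.26 SE, edgeR adjusted p = 0.615), as for 26%. The difference was not tested, since the tables were scaled separately. The medians over all IDs were -0.55 at T0 and 0.02 in the naive table, and relative to them KCNQ1OT1 was -0.18 and 0.38. Without T0 pulldown replicate 2, which holds 6 counts, the T0 value relative to its median was 0.89. The single T4 input, used in no test, had 74.9 CPM, above the higher T0 input at 44.6 CPM; it is 1 library without a replicate.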

How the results depend on the processing

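Values are log2. Pulldown over input passed the threshold for eIF4E with library size in place of TMM (1.62), with library size without the 10 highest IDs (0.89), without a count filter (0.83) and with only the libraries compared (0.74), and for eIF4A with library size (1.22). Input-adjusted C1 minus eIF4A turned to -0.34 with library size, and relative to the median of all IDs it was 0.34, against 0.36 with TMM. T20 over T0 in inputs passed with only the 8 inputs (2.37), only the libraries compared (2.42) and DESeq2 (2.58); in pulldowns it passed with library size (3.24), no filter (2.88) and DESeq2 (2.87). The replicate block changed no call: it gave 0.70, 0.74 and 0.44 for C1, eIF4E and eIF4A pulldown over input, 2.47 and 2.91 for T20 over T0 in inputs and pulldowns, and -0.73 for hippuristanol over DMSO. Same-numbered T20 and T0 inputs deviated in opposite directions (-0.70 across IDs), and a block with the T20 numbers crossed called 8 IDs, against 7 without it. The crossed block and the fits of only inputs or only pulldowns were chosen after seeing the data.

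With 1 library left out, pulldown over input was 0.50 to 0.85 for C1 (passing without pulldown replicate 1), 0.45 to 1.05 for eIF4E (passing without pulldown replicate 2), 0.22 to 0.70 for eIF4A, -1.55 to -0.29 at T0, -0.46 to -0.17 at T20 and -2.47 to -0.68 with hippuristanol. The differences were 0.04 to 0.64 for eIF4E minus eIF4A, -0.022 to 0.46 for C1 minus eIF4A (-0.022 without eIF4A input replicate 2) and -0.35 to 0.25 for C1 minus eIF4E, which was above 0 without C1 input replicate 2 (0.05), eIF4E input replicate 2 (0.07), C1 pulldown replicate 1 (0.08) or eIF4E pulldown replicate 1 (0.25). T20 over T0 was 2.37 to 2.60 in inputs, 2.43 to 3.69 in pulldowns and -0.044 to 1.22 input-adjusted; hippuristanol over DMSO was -1.96 to -0.17.

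Over all alternatives, single libraries left out included, the IDs called numbered 15 to 3246 for C1 pulldown over input (802 as reported; 3246 without pulldown replicate 2), 99 to 4525 for eIF4E (312), 88 to 3940 for eIF4A (271), 33 to 267 at T0 (60), 24 to 659 at T20 (62) and 28 to 199 with hippuristanol (42). They numbered 0 to 1208 for C1 minus eIF4A (15), 10 to 1210 for C1 minus eIF4E (27), 0 to 379 in inputs (7) and 0 to 1143 in pulldowns (24) for T20 over T0, 0 to 82 for T20 minus T0 (0) and 0 to 797 for hippuristanol over DMSO (0). In stress pulldowns, 1 T0 and 1 hippuristanol library hold 6 counts each.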
